A study of Mus musculus with 4 samples.

Results

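The expression of 10 genes of mitochondrial dynamics and mitochondrial DNA maintenance was examined in myoblasts exposed to palmitate. They were Mfn1, Mfn2, Opa1, Dnm1l, Fis1, Mff, Tfam, Polg, Tfb2m and Nrf1, taken by name for their roles, with earlier results of these data known. On the arrays they were represented by 19 probes, out of 39429 gene probes, and by 10 of the 19751 genes that could be named.

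RNA came from C2C12, a single established mouse line of satellite cells from thigh muscle, harvested while proliferating. On each of 4 two-colour arrays, 1 culture exposed to palmitate at 0.1 mmol/l, given with albumin and ethanol, for 48 h was set against 1 control culture that received the same albumin and ethanol. The label of the control RNA names HS as the serum, whereas the culture protocol gives one medium with fetal bovine serum for both groups. If that label holds, serum and treatment cannot be told apart on any array. The palmitate RNA carried Cy5 and the control RNA Cy3 on all 4 arrays, so dye and treatment cannot be told apart.

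Mitochondria fuse and divide continually. The mitofusins Mfn1 and Mfn2 are GTPases that join outer membranes and Opa1 is the GTPase that joins inner membranes, whereas Dnm1l (Drp1) is the GTPase that constricts the organelle and Fis1 and Mff are outer membrane proteins linked to its recruitment. Tfam packages mitochondrial DNA and starts its transcription together with Tfb2m, Polg is the catalytic subunit of the polymerase that copies it, and Nrf1 is a nuclear transcription factor of genes that encode mitochondrial proteins. Muscle depends on this machinery for its respiratory capacity.

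All 19 probes were well above background on all 4 arrays in both channels. The same held for 21787 of all 39429 probes. On single arrays, between 57.6% and 64.1% of all probes were well above background in the control channel. In the palmitate channel it was between 62.0% and 70.7%. Replicate 1 stood apart from the other arrays. Over all 24187 tested probes its log2 ratios correlated with those of replicates 2 to 4 at r between -0.16 and 0.057, whereas replicates 2 to 4 correlated with each other at r between 0.68 and 0.77. Over the 19 member probes, several of which share a gene, the corresponding ranges were -0.31 to 0.13 and 0.55 to 0.87. A probe for ribosomal RNA, Rn28s1, had log2 ratios of 1.42, -2.49, -2.14 and -3.35 in replicates 1 to 4. The endothelial receptor gene Kdr likewise had 0.98 in replicate 1 and -1.33, -1.09 and -0.93 in the others, and Pecam1, another endothelial gene, had 0.25, -0.49, -0.23 and -0.073 and was above background on all 4 arrays in both channels. Of the other endothelial markers, Cdh5 and Tek were never above background and Tie1 was so in the control channel of 1 array. The summed signal of the 5 endothelial markers, most of it Kdr, was 6268 in the palmitate channel of replicate 1. In that of the others it was 1686 to 1823, against 2778 to 3627 in the control channels. The part of these differences in the results was not tested, and each leading result is therefore given with and without replicate 1. Replicate 1 was picked out by its values, and leaving out an array that differs can lower the spread. A p without replicate 1 is therefore a description only.

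All 8 myoblast markers were tested (Myod1, Myf5, Des, Vim, Cdh15, Pax7, Cdh2 and Itga7). Pax7 was dim, above background on 2 arrays in the control channel. The summed signal of the 8 markers ranged from 176771 to 256349 in the control channels and from 298646 to 355064 in the palmitate channels. Most of it was Vim, a gene not particular to myoblasts, with log2 ratios of 0.34, 1.28, 1.27 and 1.10. The mean log2 ratio was above 0 for 6 of the 8 markers and below 0 for Cdh2 (-0.21) and Des (-0.13). Of the adipocyte markers 1 of 6 was tested (Fabp4) and Adipoq, Cfd, Lep, Plin1 and Retn were never above background. Of 8 markers of differentiated muscle 5 were tested (Myog, Myh3, Acta1, Tnnt3 and Tnnc2, not Ckm, Mylpf and Actn2), and the list's summed signal was 14565 to 16825 in control and 13216 to 17940 in palmitate channels. Of the macrophage and leukocyte markers 3 of 5 on the array were tested (Itgam, Csf1r and Adgre1). Ptprc was above background on some arrays and Lyz2 on none. Itgam and Csf1r were above background on all 4 arrays in both channels, and Itgam was bright, with log2 signals from 13.95 to 15.84 in the palmitate channel and a log2 ratio of 0.59 in replicate 1. The summed signal of the list, most of it Itgam, was 18760 to 44308 in control and 16908 to 60259 in palmitate channels.

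Values are log2 ratios of palmitate over control after background correction and dye normalization, given in the order of replicates 1 to 4. The RNA was that of whole cultures, so fewer cells of a kind and less RNA per cell cannot be told apart. None of the 19 probes reached an adjusted p of 0.05 over the 4 arrays (limma, Benjamini-Hochberg over all tested probes), where the percentage of all tested probes that did so was also 0. At an unadjusted p under 0.05 there were 4 member probes higher and 0 lower, against 10.8% of all tested probes higher and 11.1% lower. These 4 probes belonged to Mfn2 (2 probes), Mff and Tfam. Without replicate 1, 6 member probes of Mfn1, Mfn2, Mff and Tfam were higher and 0 lower at an adjusted p under 0.05, against 8.78% higher and 9.20% lower of all tested probes. By the brightest probe only Mfn2 and Mff passed, and 8.75% of all tested genes were higher by that count. No member reached a 1.6-fold mean change by its brightest probe, whereas 2.44% of all tested genes did. The lowest two-sided p that an exact sign-flip test can give with 4 arrays is 0.125.

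**Figure D1:**
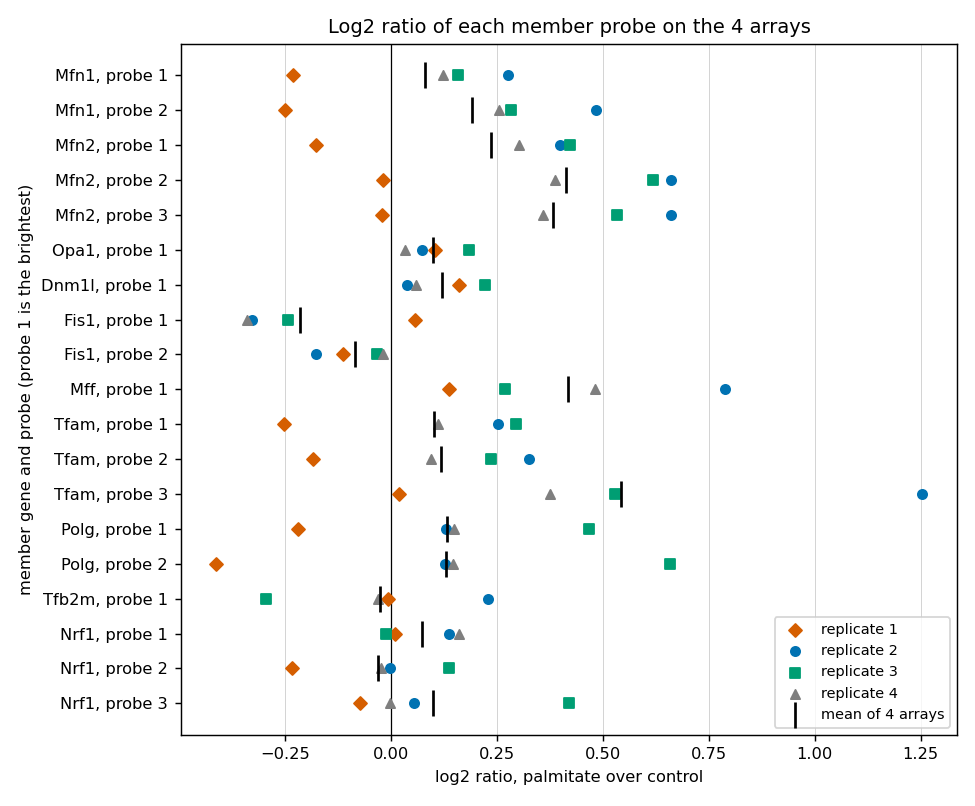
Log2 ratio of palmitate over control for each of the 19 member probes, with 1 point per array and the mean of the 4 arrays; replicate 1 is marked separately. Replicate 1 gave the lowest of the 4 values for 13 probes and the highest for 1. The same count was not made over all tested probes, so it is a description only.

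Among the fusion genes, Mfn2 had 3 probes, and all of them were higher with palmitate on replicates 2 to 4 and below 0 on replicate 1. The brightest probe read -0.18, 0.40, 0.42 and 0.30, a mean of 0.24 ± 0.28 (SD, n = 4). The second probe read -0.020, 0.66, 0.62 and 0.39 (mean 0.41 ± 0.31, SD, n = 4), and the third -0.022, 0.66, 0.53 and 0.36 (mean 0.38 ± 0.30, SD, n = 4). The size thus differed between probes of the gene, and the control and palmitate signals overlapped for each of them because of replicate 1. The adjusted p was 0.303, 0.157 and 0.166 over 4 arrays (limma). Without replicate 1 the Mfn2 means were 0.37, 0.56 and 0.52, with an adjusted p of 0.0306, 0.0135 and 0.0165 (limma). Leaving out any of the other arrays in place of replicate 1 gave none of the 3 probes an adjusted p under 0.05.

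Mfn1, the second mitofusin, had a smaller value with the same arrangement of arrays. Its brightest probe read -0.23, 0.28, 0.16 and 0.12, with a mean of 0.081 ± 0.22 (SD, n = 4) and a 95% confidence interval from -0.17 to 0.33. The other probe read -0.25, 0.48, 0.28 and 0.25, with a mean of 0.19 ± 0.31 (SD, n = 4). Neither passed over 4 arrays (adjusted p 0.673 and 0.419, limma), and without replicate 1 the means were 0.19 and 0.34 with an adjusted p of 0.192 and 0.0492. Without replicate 2 the means were 0.016 and 0.095.

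Opa1 varied least of the fusion genes, with log2 ratios of 0.10, 0.072, 0.18 and 0.033. All 4 arrays gave a small positive value, replicate 1 included. The mean was 0.098 ± 0.064 (SD, n = 4), with a 95% confidence interval from -0.085 to 0.28 and an adjusted p of 0.478 (limma). A change of 1.6-fold in either direction lay outside this interval.

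Of the fission genes, Mff gave the clearest separation of the groups. Its normalized log2 signals in the control channel were 12.54, 12.49, 12.59 and 12.48, and in the palmitate channel 12.67, 13.28, 12.86 and 12.96. Every palmitate signal lay above every control signal, by 0.079 at the closest. This held for 1 of the 19 member probes, that of Mff, and for 5.58% of all tested probes. The members thus did not differ from other probes in this count. The log2 ratios were 0.14, 0.79, 0.27 and 0.48, a mean of 0.42 ± 0.28 (SD, n = 4) or 1.34-fold, higher on 4 of 4 arrays. The p was 0.0127 before and 0.143 after adjustment (limma, 95% confidence interval 0.13 to 0.71), and 0.125 by the exact sign-flip test. Without replicate 1 the mean was 0.51 and the adjusted p 0.0288. When arrays were weighted by their agreement with the rest, which gave replicate 1 the lowest weight, Mff and 2 Mfn2 probes had adjusted p of 0.0382, 0.0360 and 0.0406, and 5.11% of all tested probes were higher at that threshold.

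**Figure D2:**
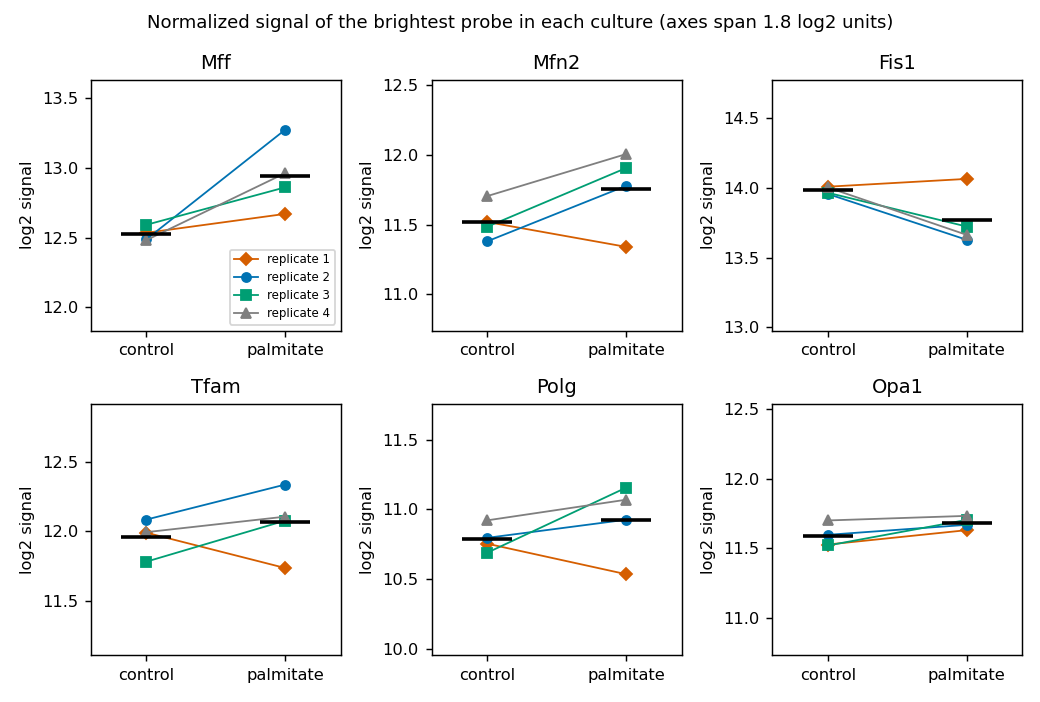
Normalized log2 signal of the brightest probe of Mff, Mfn2, Fis1, Tfam, Polg and Opa1 in the control (Cy3) and palmitate (Cy5) channels, with 1 line per array and a bar at the mean of each channel. The Mff signals of the groups do not overlap. For Mfn2, Fis1, Tfam and Polg the line of replicate 1 runs against those of the other 3 arrays.

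Fis1, the other outer membrane protein of the fission group, had the opposite sign to Mff on replicates 2 to 4. Its bright probe read 0.056, -0.33, -0.24 and -0.34, with a mean of -0.21 ± 0.19 (SD, n = 4) and an adjusted p of 0.257 (limma). Without replicate 1 the mean was -0.30 and the adjusted p 0.0542. The sign depended on the dye normalization, since after median centring the mean was 0.12 with a median of all probes of 0.18, so Fis1 lay below that median by either scaling. A dim Fis1 probe read -0.11, -0.18, -0.034 and -0.020, negative on every array, with a mean of -0.086 ± 0.074 (SD, n = 4) and an adjusted p of 0.537. The difference of Mff minus Fis1 by the brightest probes was 0.080, 1.12, 0.51 and 0.82 (mean 0.63 ± 0.44, SD, n = 4), a contrast chosen after its values were seen and therefore not tested.

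Dnm1l, the fission GTPase itself, gave 0.16, 0.037, 0.22 and 0.059. As for Opa1, the sign was positive on 4 of 4 arrays and replicate 1 lay within the range of the others. The mean of 0.12 ± 0.087 (SD, n = 4) had a 95% confidence interval from -0.070 to 0.31 and an adjusted p of 0.405 (limma). Opa1, Dnm1l and Mff were the 3 members higher on all 4 arrays by the brightest probe, and 0 members were lower on all 4. The share of all tested genes with 1 sign on every array was not counted, so these counts are a description only.

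For the genes that act on mitochondrial DNA, no change was detectable with 4 arrays by their bright probes. Tfam had 2 bright probes that read -0.25, 0.25, 0.29 and 0.11 (mean 0.10 ± 0.25, SD, n = 4) and -0.19, 0.33, 0.24 and 0.094 (mean 0.12 ± 0.22, SD, n = 4). The adjusted p was 0.622 and 0.541 (limma). Another, dim Tfam probe gave a larger value than these, with 0.018, 1.25, 0.53 and 0.37. Its mean was 0.54 ± 0.52 (SD, n = 4), with an adjusted p of 0.186 over 4 arrays and 0.0309 without replicate 1, so the probes of Tfam disagreed in size. Without replicate 1 the 2 bright probes had a mean of 0.22 each and an adjusted p of 0.138 and 0.148. The lowest means with 1 array left out were 0.036, 0.048 and, for the dim probe, 0.31.

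Polg read -0.22, 0.13, 0.47 and 0.15 by its brighter probe and -0.41, 0.13, 0.66 and 0.15 by the other. Replicate 1 was the lowest and replicate 3 the highest for both probes. The means were 0.13 ± 0.28 and 0.13 ± 0.44 (SD, n = 4), with an adjusted p of 0.549 and 0.673 (limma), and without replicate 1 the means were 0.25 and 0.31 (adjusted p 0.143 and 0.135). Without replicate 3 they were 0.020 and -0.047. The 95% confidence intervals over all 4 arrays ran from -0.16 to 0.42 and from -0.27 to 0.53. Tfb2m took both signs, with -0.0080, 0.23, -0.30 and -0.032, a mean of -0.027 ± 0.21 (SD, n = 4) and an adjusted p of 0.900. Its sign too turned after median centring, to 0.26. No change of Tfb2m was detectable with 4 arrays, and its 95% confidence interval ran from -0.28 to 0.22.

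Nrf1 likewise showed no change beyond the spread of the arrays. Its brightest probe read 0.0086, 0.14, -0.013 and 0.16 (mean 0.073 ± 0.088, SD, n = 4), and the adjusted p was 0.610 (limma). The 2 dim probes had means of -0.031 ± 0.15 and 0.099 ± 0.22 (SD, n = 4), with an adjusted p of 0.863 and 0.605.

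The factor encoded by Nrf1 recognises a GC-rich palindrome, and ETS factors such as GABP bind beside it in many promoters of mitochondrial genes. The RefSeq promoters of the members (GRCm38.p6) were therefore searched on both strands over the 250 bases before each start, counting a gene once if any of its promoters matched. The letters TGCGCA, called the NRF1 core here, are their own reverse complement. They occurred in Opa1, Fis1 and Tfb2m, 3 of the 10 members, and in 7.36% of all 27025 genes with a promoter. The palindrome GCGCATGCGC, which does not itself contain TGCGCA, occurred in Opa1, where the matches overlap, and in 0.877% of all genes. The ETS core CCGGAA, read as TTCCGG on the other strand, occurred in Mfn1, Fis1, Tfam and Polg, and in 13.6% of all genes. The site of estrogen-related receptors, AAGGTCA or on the other strand TGACCTT, occurred in 0 members and in 4.70% of all genes. Mfn2, Dnm1l, Mff and Nrf1 had none of these letters in their windows. A match describes the sequence and not a bound site. The 3 windows with the NRF1 core and those of the DNA-binding and DNA-copying proteins Tfam and Polg are shown 5′ to 3′ on the strand of the gene, with the matched letters in capitals.
Opa1, chr16:29579253-29579312, plus strand: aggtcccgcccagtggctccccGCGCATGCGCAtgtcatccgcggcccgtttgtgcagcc
Fis1, chr5:136953141-136953200, plus strand: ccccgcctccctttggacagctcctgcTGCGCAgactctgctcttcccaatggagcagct
Tfb2m, chr1:179546425-179546484, minus strand: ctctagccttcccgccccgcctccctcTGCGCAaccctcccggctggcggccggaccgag
Tfam, chr10:71238059-71238118, minus strand: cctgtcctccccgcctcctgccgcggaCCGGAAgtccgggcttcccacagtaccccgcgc
Polg, chr7:79466279-79466338, minus strand: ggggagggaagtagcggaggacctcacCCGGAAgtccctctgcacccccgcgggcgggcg
The 3 genes with the NRF1 core had mean log2 ratios of 0.098 (Opa1), -0.21 (Fis1) and -0.027 (Tfb2m) by their brightest probes. The 4 genes with the ETS core had 0.081 (Mfn1), -0.21 (Fis1), 0.10 (Tfam) and 0.13 (Polg). Fis1, which held both motifs, was the only negative member with the ETS core. Mff, Mfn2, Dnm1l and Nrf1, which held none of the letters searched, had means of 0.42, 0.24, 0.12 and 0.073. A relation of the letters to the ratios was not tested.

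**Figure D3:**
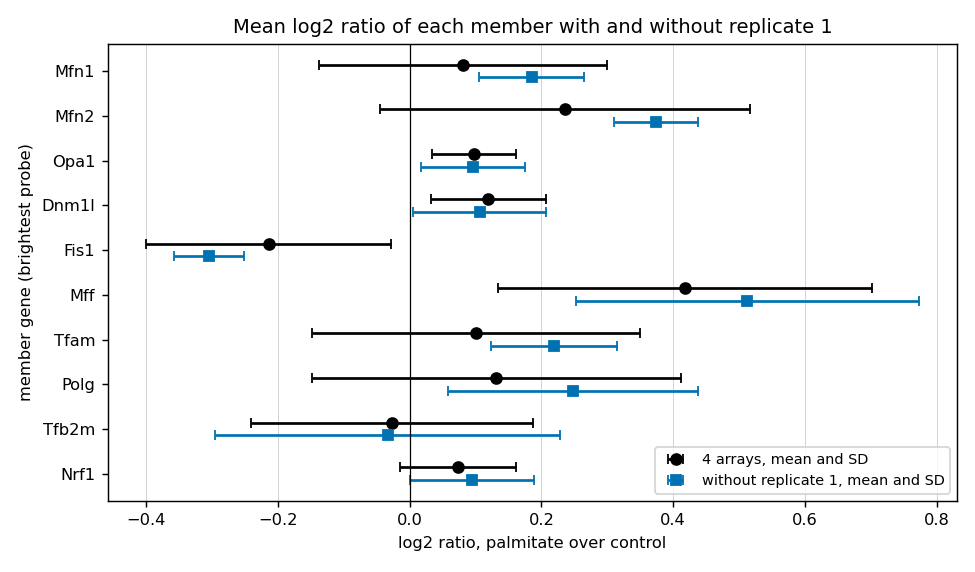
Mean log2 ratio of palmitate over control for the brightest probe of each member, with bars of 1 SD between arrays, for all 4 arrays (circles) and without replicate 1 (squares). Without replicate 1 the Mfn2 mean moves from 0.24 to 0.37 and its SD from 0.28 to 0.064, whereas Opa1 stays at 0.098 and 0.096.

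As a group, 8 of the 10 members had a mean above 0 by the brightest probe (80%), and 50.3% of all 13728 tested genes did. Fis1 and Tfb2m were the members below 0. The median over the members was 0.099, and 0.15 without replicate 1, beside 0.0015 over all tested genes. Per array the members' median was 0.00034, 0.18, 0.20 and 0.12, so the shift was seen on replicates 2 to 4. On replicate 1 the median was -0.18 for the 3 fusion genes, 0.14 for the 3 fission genes and -0.22 for the 3 genes of mitochondrial DNA. On the other arrays these medians lay from 0.12 to 0.28, from 0.037 to 0.22 and from 0.11 to 0.29. Members spread between arrays about as much as other genes, with a median SD of 0.22 beside 0.20.

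Other genes of the same processes were taken by their brightest probe, and 101 of 104 were tested. None reached an adjusted p of 0.05 (limma). At an unadjusted p under 0.05, 16 were lower and 10 higher, against 13.3% lower and 10.8% higher of all tested genes, and without replicate 1, 6 were lower and 10 higher after adjustment, against 9.82% and 8.75%. The median over the 101 genes was -0.039, and 44 of them were above 0. The same shares of all tested genes, 13.3% lower and 10.8% higher, apply to the counts per list below. No list was tested as a set.

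Of 30 tested genes that shape mitochondrial membranes, 5 were lower and 4 higher at an unadjusted p under 0.05, with a median of 0.050. Micos10, a subunit of the complex that forms crista junctions, was lower on 4 of 4 arrays, with -0.30, -0.60, -0.45 and -0.57 (mean -0.48 ± 0.14, SD, n = 4). Its adjusted p was 0.118 over 4 arrays and 0.0117 without replicate 1 (limma). Mtfr2, a mitochondrial fission regulator, was higher on 4 of 4, with 0.76, 0.34, 0.54 and 0.34, a mean of 0.50 ± 0.20 (SD, n = 4) and an adjusted p of 0.118 and, without replicate 1, 0.028. Both genes had the same sign on replicate 1 as on the other arrays, as did Opa1, Dnm1l and Mff.

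Of 15 tested genes of mitochondrial movement and quality control, 3 were lower and 2 higher by the same threshold, with a median of 0.13. The proteases of the intermembrane space and the matrix, Htra2 and Clpp, had the lowest p. Htra2 read -0.54, -0.70, -0.30 and -0.28 and Clpp -0.021, -0.25, -0.43 and -0.36. Their adjusted p was 0.118 and 0.186, and 0.043 and 0.040 without replicate 1 (limma).

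Of 28 tested genes of mitochondrial DNA replication, repair and nucleotide supply, 4 were lower and 4 higher, with a median of -0.067. Suclg1, a subunit of succinyl-CoA ligase that supports the mitochondrial nucleotide pool, read 0.15, 0.80, 0.51 and 0.44. Ung, the uracil glycosylase of base excision repair, read 0.77, 0.27, 0.42 and 0.23. Both were above 0 on 4 of 4 arrays, with adjusted p of 0.126 and 0.131, and of 0.0142 and 0.0587 without replicate 1 (limma).

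Of 13 tested genes of mitochondrial transcription and RNA, 2 were lower and 0 higher, with a median of -0.085. These were Fastk, of a family that acts on mitochondrial RNA, and Slirp, which stabilises mitochondrial messenger RNAs. Fastk read -0.39, -0.52, -0.24 and -0.28, and Slirp 0.15, -0.83, -0.63 and -1.15. The Slirp mean of -0.62 ± 0.56 (SD, n = 4) had an adjusted p of 0.170, and 0.00699 without replicate 1, while Fastk had 0.123 and 0.0518 (limma).

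Of 15 tested regulators of mitochondrial biogenesis, 2 were lower and 0 higher, with a median of -0.038. Of all tested genes 13.3% were lower by that threshold, a share near that of this list. The 2 genes were the deacetylases Sirt3 of the mitochondrion and Sirt1 of the nucleus. Sirt3 read -0.47, -0.55, -0.19 and -0.24 and Sirt1 -0.086, -0.56, -0.58 and -0.40, below 0 on 4 of 4 arrays. The adjusted p was 0.131 for both, and 0.0751 and 0.0142 without replicate 1 (limma). Gdap1 and Esrrg were never above background in either channel.

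**Figure D4:**
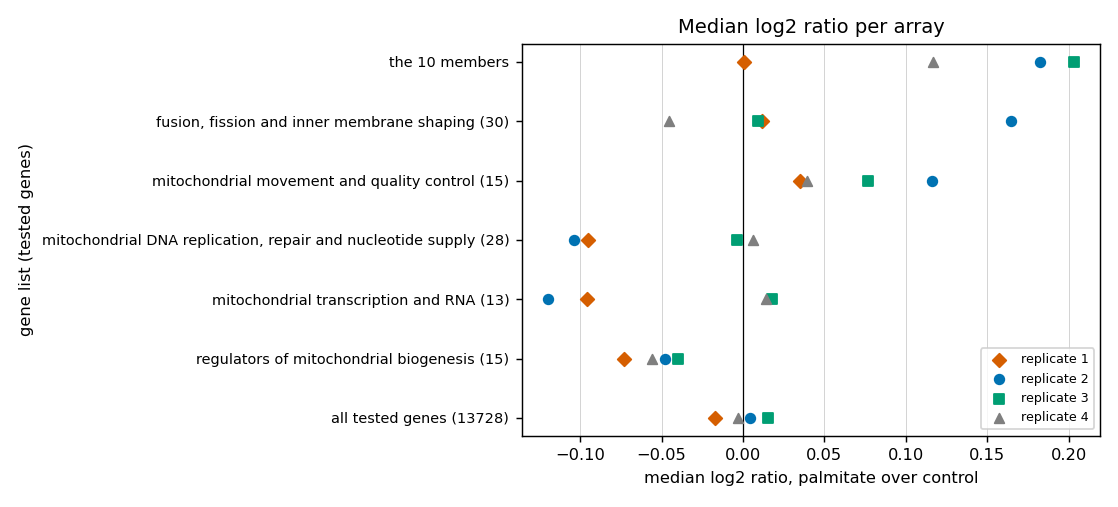
Median log2 ratio of palmitate over control per array for the 10 members, the 5 pathway lists and all tested genes, with the number of tested genes in brackets. The members' medians on replicates 2 to 4 lie between 0.12 and 0.20, and those of all tested genes lie between -0.017 and 0.016 on the 4 arrays.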

How the data were processed

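The arrays were read with Agilent Feature Extraction 10.7.3.1. The authors deposited uncorrected median intensity per spot and its local background, and these stood in for the mean signals that had been planned. The authors also deposited processed intensity, its log10 ratio and a table of log2 ratios of palmitate over control, which were used as alternatives or to check direction.

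In limma 3.58.1 (R 4.3.3), normexp with an offset of 50 removed local background and loess balanced the dyes within each array. Spots of a probe were averaged without outlier spots, and 24187 of 39429 probes entered the test because 1 channel or both exceeded background on every array. The test was limma's moderated test of the mean log2 ratio, adjusted by Benjamini-Hochberg, each array pairing 1 control with 1 palmitate culture. The labels call the arrays biological replicates, and the p-values measure the spread between these 4. Signals in single channels were scaled with Aquantile. The fit was tested on simulated data. Their spread left out replicate 1 and their changes were larger than those of the members, so they do not measure the power for these genes. The number of arrays limits the precision.

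Probes were named through RefSeq accessions, which named 26055 of them. The text names all members, and in each pathway list the 2 tested genes with the lowest unadjusted p, by brightest probe. Marker genes of each list are named besides. Members and lists were chosen with earlier results of these data known. Alternatives changed background, normalization, filter, array weights, pairing, test and arrays used.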

Additional observations from a re-analysis of the deposited data

How the results depend on the processing

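The count of 0 member probes past an adjusted p of 0.05 became 18 of 19 without dye normalization, where the median of all probes was 0.99 and 84.1% of all probes passed, and 3 with array weights, where 11.2% of all probes passed. Leaving out 1 array gave 0 to 6, with 6 without replicate 1, when 4349 of all probes passed. Of all probes 0 passed in the reported fit, 13 with processed signals or the deposited table, and 2 with a limit on the coefficient of variation or 1 probe per gene. The pathway count of 0 became 94 and 11 by the first pair of alternatives and 0 to 16 with 1 array left out. The member median of 0.099 was 0.39 after median centring (all probes 0.18), 1.20 without dye normalization (all probes 0.99) and 0.066 to 0.15 with 1 array left out.

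Of 314 member probe values over the alternatives, 276 kept direction and side of the threshold, 24 kept direction and passed it, and 14 changed sign, of which 3 passed it as well (Fis1, Tfb2m and Nrf1, 1 probe each, without dye normalization). Fis1 read 0.12 after median centring, and 0.93 and 0.64 by its probes without dye normalization. Tfb2m read 0.0022 with processed signals and in the deposited table, 0.26 after centring, 1.08 without dye normalization and -0.11 to 0.063 with 1 array left out. The second Nrf1 probe read 0.15, 0.97 and 0.0013 (array weights), and -0.087 to 0.037 with 1 array left out. With 1 array left out the third Nrf1 probe ranged from -0.0078 to 0.16 and the second Polg probe from -0.047 to 0.31. The cause was not tested.

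The replicate block is the array itself. The fit with no replicate block, on single channels, called 0 member probes and 15 of all probes, and changed no other call. At the p threshold of the methods, the methods' t-test called 3 member probes before and 0 after Benjamini-Hochberg adjustment, and 4256 and 7 of all probes. With the 1.6-fold limit of the methods added, it called 0 member probes and 405 of all probes before adjustment. The t-test was run on the normalized signals and probe filter used here, not on those of the methods.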
